A study of Mus musculus with 6 samples.

Results

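Transcripts of B cells and of MHC class II antigen presentation were followed in RNA of purified mouse platelets. The 9 genes were taken by symbol from the deposited tables: the class II genes H2-Aa, H2-Ab1, H2-Eb1 and Cd74, and the B cell genes Cd79a, Cd79b, Igkc, Ighm and Ms4a1. All 9 were found among the 9822 genes counted. Mutant mice carried 1 Nxf1 allele with the C587R change (Nxf1+/C587R), in the gene for the main receptor of mRNA export, and were compared with wild-type littermates. All were males on the BalB/c background, and neither their age nor the number of animals in a pool is given in the sources used here. Each of the 6 libraries came from a pool of suspensions of 1 genotype in which more than 98% of flow cytometry events were CD41+, CD41 being a platelet integrin. Preparations were made on 3 days, with 1 pool of either genotype per day, which gave 3 libraries per genotype, and replicate numbers below are those of the days. The p-values therefore measure the spread between pools, and the labels also place the wild-type libraries in another series.

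MHC class II molecules are pairs of an alpha and a beta chain that present peptides to CD4+ T cells, and are made mainly by B cells, dendritic cells and macrophages. Cd74 encodes the invariant chain, which holds the peptide groove during transport. The B cell receptor is an immunoglobulin of heavy and light chains that signals through CD79a and CD79b, and Ms4a1 encodes the B cell surface protein CD20. Platelets have no nucleus and carry RNA from their megakaryocyte parents, so in a platelet preparation these transcripts are commonly read as a measure of leukocyte RNA. In bulk RNA, fewer cells of a type and less RNA per cell cannot be told apart.

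Promoters of class II genes share an X box and a Y box, which bind the RFX and NF-Y factors and, through them, the coactivator CIITA. From the table of RefSeq promoters (GRCm38.p6, the assembly behind mm10), those of 3 of the 9 genes are shown, H2-Aa, H2-Eb1 and Cd79a. Their transcripts fell together in mutant pools, as did those of Cd74 and Igkc, whose promoters are not shown. Each promoter shown is written from its 5′ end on the gene's strand up to the base before the transcription start. They lie at chr17:34287824-34287953 on the minus strand (H2-Aa), chr17:34305737-34305866 on the plus strand (H2-Eb1) and chr7:24897317-24897496 on the plus strand (Cd79a). Capitals mark the X box core GCAAC and the Y box TGATTGG in the class II genes, and the letters CAAGGGAAT of an early B cell factor (EBF) site in Cd79a.
H2-Aa: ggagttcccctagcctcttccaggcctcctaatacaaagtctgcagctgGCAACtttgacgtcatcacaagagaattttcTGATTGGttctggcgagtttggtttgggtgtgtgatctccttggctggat
H2-Eb1: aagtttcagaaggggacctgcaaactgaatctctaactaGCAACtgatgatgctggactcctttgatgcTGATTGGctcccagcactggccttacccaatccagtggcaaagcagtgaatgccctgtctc
Cd79a: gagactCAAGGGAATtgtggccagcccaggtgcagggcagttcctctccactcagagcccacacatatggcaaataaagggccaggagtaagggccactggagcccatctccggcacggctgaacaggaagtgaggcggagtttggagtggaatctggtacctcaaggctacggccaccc
The X box core and the Y box stood 26 bases apart in H2-Aa and 25 in H2-Eb1. Searched on both strands, GCAAC was present in 35.2% of the 32851 mouse promoter windows in the table, TGATTGG in 7.82% and CAAGGGAAT in 0.244%. GCAAC followed by TGATTGG after 20 to 40 bases was present in 64 windows (0.195%), among them those of the related class II genes H2-Oa, H2-Ob and H2-Eb2. It was absent from the windows of the class II pathway genes H2-DMa, H2-DMb1 and H2-DMb2. Such matches describe letters, not binding.

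Library totals ranged from 25189231 to 29421549 counts. All 17 platelet markers examined, such as Pf4 and Itga2b, were present, with summed levels of 66157 to 88157 CPM per library (CPM being counts relative to the library total, here scaled by TMM factors). The 9 transcripts summed to 285, 295 and 350 CPM in mutant pools of days 1, 2 and 3 and to 373, 364 and 485 CPM in wild-type pools, with no overlap between genotypes in this scaled sum. As a share of all counts, without TMM factors, the genotypes overlapped: 0.0259%, 0.0284% and 0.0368% in mutant pools and 0.0358%, 0.0348% and 0.0575% in wild-type pools. The 5 B cell transcripts also overlapped in summed CPM (100.7, 103.9 and 137.8 against 122.9, 123.3 and 173.5), while the 4 class II transcripts did not (184, 191 and 212 against 250, 241 and 311). Both day 1 libraries stood apart in red cell transcripts, with 31627 (mutant) and 35882 CPM (wild type) over 8 markers against 3981 to 4579 CPM in the other 4 libraries. Wild-type replicate 3 had the highest TMM factor, 1.19, against 0.912 to 1.05 in the other libraries. The alignment build is the C57BL/6J sequence, whereas the mice were BalB/c, and class II genes vary between strains. How many class II reads were lost in this way was not tested.

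The genotype comparison asks whether leukocyte RNA in the preparations differed with the Nxf1 allele. Of the 9 transcripts, 5 were lower in mutant platelets (H2-Aa, H2-Eb1, Cd74, Cd79a and Igkc) and none was higher, by edgeR's quasi-likelihood test at a Benjamini-Hochberg adjusted p of 0.05 over all genes. Across all 9822 genes 9.16% were called lower and 12.9% higher. The median log2 fold change, mutant minus wild type, was -0.45 over the 9 transcripts and -0.04 over all genes. Every mutant library lay below every wild-type library for 6 of the 9 (15.9% of all genes), and 8 of 9 were lower in the mutant pool on all 3 days (30.7% of all genes). With the preparation day as a block, 7 of 9 were called lower (18% of all genes), H2-Ab1 and Ighm being added.

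**Figure D1:**
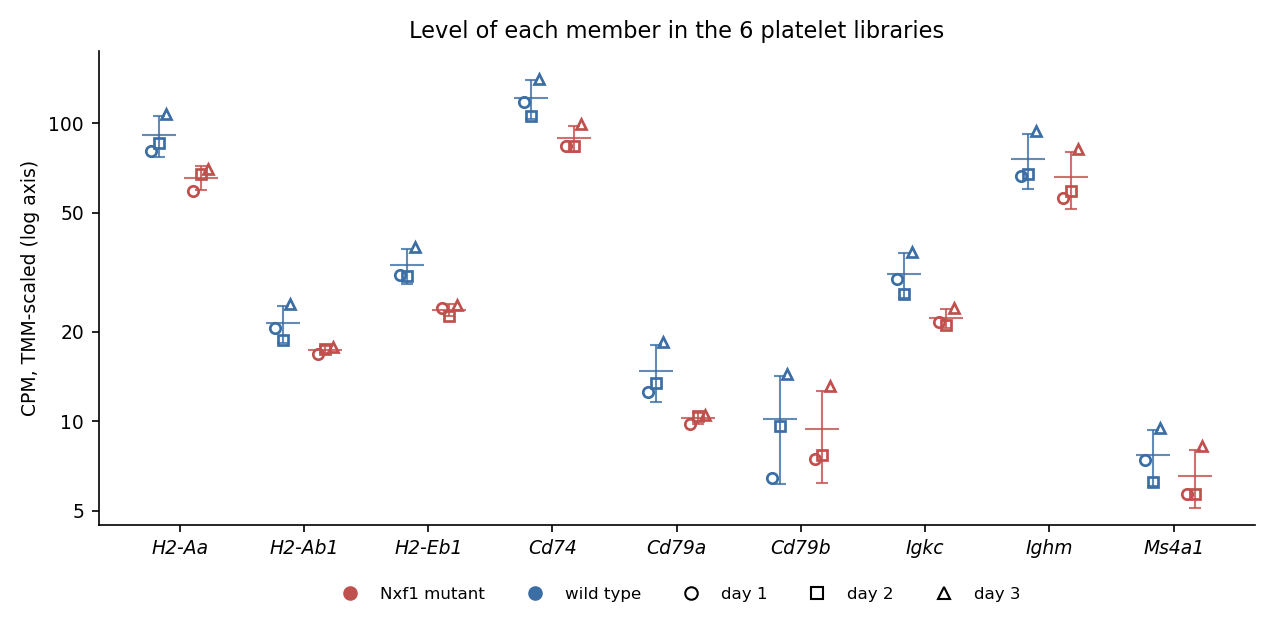
Level of the 9 transcripts in each library, in TMM-scaled CPM on a log axis; symbols are single pools (circle day 1, square day 2, triangle day 3), and bars are the mean and SD of 3 pools per genotype. For the 4 class II genes, Cd79a and Igkc all red mutant points lie below all blue wild-type points, whereas Cd79b, Ighm and Ms4a1 overlap, and day 3 is highest in both genotypes throughout.

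All 4 class II transcripts were lower in mutant pools with no overlap between genotypes, and 3 of them passed the test. H2-Aa (Entrez 14960, chromosome 17, 34282744 to 34287823, mm10), the alpha chain of the A molecule, measured 59.0, 67.6 and 70.5 CPM in mutant pools of days 1 to 3 and 80.5, 86.1 and 107 CPM in wild-type pools. The highest mutant pool stayed below the lowest wild-type pool, and the means were 65.7 ± 5.95 and 91.3 ± 14.2 CPM (SD, n = 3 each). Mutant pools were lower by a log2 fold change of -0.48 ± 0.13 (SE), or by 28.1% (adjusted p = 0.0097, edgeR). Its beta chain partner H2-Ab1 (Entrez 14961, chromosome 17, 34263227 to 34269418) measured 16.9, 17.5 and 17.8 CPM in mutant pools and 20.5, 18.7 and 24.7 CPM in wild-type pools. The genotypes did not overlap but came close on day 2, and the difference of -0.30 ± 0.12 did not pass (adjusted p = 0.0981, edgeR). It passed with the day as a block (-0.29 ± 0.08, adjusted p = 0.000969, edgeR) and without wild-type replicate 2 (-0.42, adjusted p = 0.0416, edgeR). The blocked call was not kept by DESeq2 (adjusted p = 0.0502) or by edgeR without day 3 (-0.18, adjusted p = 0.0817).

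H2-Eb1 (Entrez 14969, chromosome 17, 34305867 to 34316674), the beta chain of the E molecule, measured 24.0, 22.5 and 24.6 CPM in mutant pools and 31.0, 30.7 and 38.5 CPM in wild-type pools. Mutant pools spanned a narrow range (23.7 ± 1.08 CPM), wholly below the wild-type range (33.4 ± 4.41 CPM; SD, n = 3 each). The difference was a log2 fold change of -0.50 ± 0.12 (adjusted p = 0.00501, edgeR). Cd74 (Entrez 16149, chromosome 18, 60803849 to 60812652) measured 84.0, 83.7 and 99.2 CPM in mutant pools and 118, 105 and 141 CPM in wild-type pools. Day 3 of the mutant came nearest to day 2 of the wild type without reaching it. The log2 fold change of Cd74 was -0.45 ± 0.13 (adjusted p = 0.0136, edgeR). Its call was lost without mutant replicate 1 (-0.45, adjusted p = 0.0513), without mutant replicate 2 (-0.45, 0.064), without day 1 (-0.47, 0.0967) and without day 2 (-0.54, 0.0604), all by edgeR. H2-Aa also lost its call without mutant replicate 1 (-0.45, adjusted p = 0.0513, edgeR), while H2-Eb1 passed under all 23 alternatives, with an adjusted p of at most 0.0421.

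Of the receptor's signalling chains, Cd79a fell in mutant pools and Cd79b did not pass. Cd79a (Entrez 12518, chromosome 7, 24897497 to 24901858) measured 9.77, 10.4 and 10.5 CPM in mutant pools and 12.5, 13.4 and 18.4 CPM in wild-type pools. All 3 wild-type pools exceeded all 3 mutant pools, and the log2 fold change was -0.54 ± 0.15, or 31% lower (adjusted p = 0.0112, edgeR). Without wild-type replicate 3, the highest pool, it was -0.34 (adjusted p = 0.0606, edgeR). Cd79b (Entrez 15985, chromosome 11, 106311341 to 106314562) measured 7.46, 7.68 and 13.1 CPM in mutant pools and 6.45, 9.60 and 14.4 CPM in wild-type pools. The genotypes overlapped, and the levels were ordered by day rather than by genotype. The log2 fold change of Cd79b was -0.11 ± 0.36 (adjusted p = 0.867, and 0.461 with the day as a block, edgeR).

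Of the immunoglobulin constant regions, Igkc fell in mutant pools, while Ighm did not pass without the day as a block. Igkc (Entrez 16071, chromosome 6, 70726435 to 70726754), the constant region of the kappa light chain, measured 21.5, 21.0 and 24.0 CPM in mutant pools and 30.0, 26.6 and 37.0 CPM in wild-type pools. No mutant pool reached a wild-type pool, and the log2 fold change was -0.50 ± 0.13 (adjusted p = 0.00836, edgeR), with an adjusted p of at most 0.0493 under all 23 alternatives. Ighm (Entrez 16019, chromosome 12, 113418826 to 113422730), the constant region of the IgM heavy chain, measured 56.3, 59.1 and 82.0 CPM in mutant pools and 66.5, 67.4 and 94.1 CPM in wild-type pools. The mutant pool was lower on each day, but its day 3 pool exceeded the wild-type pools of days 1 and 2. The difference of Ighm was -0.21 ± 0.16 (adjusted p = 0.396, edgeR). It was -0.21 ± 0.07 with the day as a block (adjusted p = 0.00755, edgeR) and -0.40 without mutant replicate 3 (adjusted p = 0.0433, edgeR). The blocked call was kept by DESeq2 (adjusted p = 0.0115) and lost in edgeR without day 1 (-0.23, adjusted p = 0.115) or day 2 (-0.26, adjusted p = 0.0608). Variable segments are separate genes and are not part of these values.

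Ms4a1 (Entrez 12482, chromosome 19, 11249679 to 11266149), which lies 2.48 Mb from Nxf1 on the same chromosome, was the least abundant of the 9 transcripts. It measured 5.70, 5.72 and 8.23 CPM in mutant pools and 7.42, 6.24 and 9.50 CPM in wild-type pools, from 140 to 294 counts per library. The mutant pool was lower on each day, but the genotypes overlapped. The log2 fold change was -0.24 ± 0.18 (adjusted p = 0.391, and 0.0692 with the day as a block, edgeR).

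**Figure D2:**
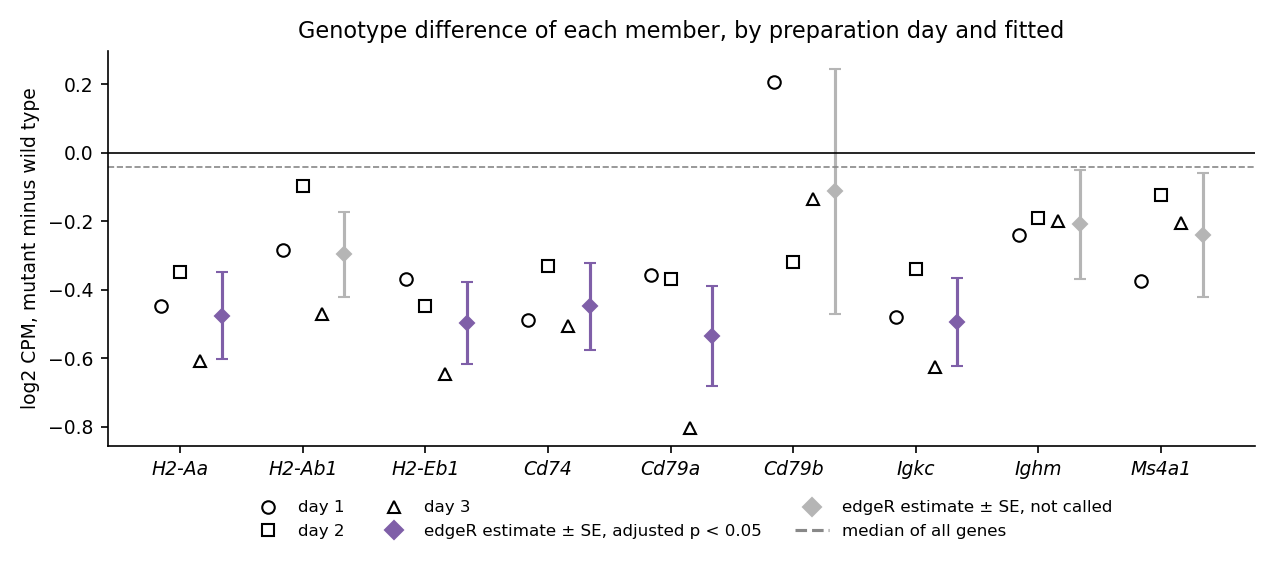
Mutant minus wild type in log2 CPM for each transcript, as the difference on each preparation day (open symbols, 1 pool of each genotype per day) and as the edgeR estimate with its SE (diamonds, purple where the adjusted p is under 0.05); the dashed line is the median of all genes, -0.04. Within-day differences of H2-Aa, H2-Eb1, Cd74, Cd79a and Igkc lie between -0.80 and -0.33, and Cd79b alone has a day above 0.

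Within days, each of which holds 1 pool of each genotype and so allows no test, the difference was largest on day 3 for 6 of the 9, the 4 class II genes, Cd79a and Igkc. On days 1, 2 and 3 it was -0.45, -0.35 and -0.61 for H2-Aa, on the log2 CPM scale. For Cd79a it was -0.36, -0.37 and -0.80, the widest within-day difference of the 9 transcripts. For Cd79b it was 0.21, -0.32 and -0.13, and this was the only transcript of the 9 whose direction changed between days. The median over the 9 transcripts was -0.37, -0.33 and -0.51 on the 3 days, against -0.02, -0.02 and -0.01 over all genes.

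Levels also differed between preparation days, and day 3 was the highest day in both genotypes for all 9 transcripts (22.8% of all genes). The day terms passed for 7 of 9 (24.5% of all genes, edgeR F test with genotype in the fit). Cd79b differed most between days, with day 3 higher than day 1 by 0.98 ± 0.12 and than day 2 by 0.67 ± 0.12 (log2, SE; adjusted p = 9.83e-15 for the day terms, edgeR). Ighm differed by 0.52 ± 0.08 between days 3 and 1 (adjusted p = 2.14e-09, edgeR) and Ms4a1 by 0.44 ± 0.13 (adjusted p = 0.00046, edgeR). The other 4 called, H2-Aa (0.34), Cd74 (0.25), Cd79a (0.36) and Igkc (0.24), had adjusted p values of 0.00153 to 0.0129. H2-Ab1 (0.18 ± 0.10, adjusted p = 0.14) and H2-Eb1 (0.18 ± 0.09, adjusted p = 0.0824) did not pass by edgeR. Both passed with upper-quartile factors (0.0334 and 0.0119) and when only genes with a mean of 5 CPM or more were tested (0.00788 and 0.00148).

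With single libraries left out, only the calls of Cd79b, Ighm and Ms4a1 between days were kept in each of the 6 runs. Each run leaves 1 day with a lone library, which is assumed to vary like the libraries of the other days. Leaving out mutant replicate 1, wild-type replicate 1 or wild-type replicate 2 left 3 of the 9 transcripts called, against 4 without mutant replicate 2, 5 without wild-type replicate 3 and 9 without mutant replicate 3. Without wild-type replicate 3, Cd79a differed by 0.11 between days 3 and 1 (adjusted p = 0.773, edgeR). DESeq2 called 4 of the 9 by day, with Ms4a1 at an adjusted p of 0.089, Igkc at 0.154 and Cd79a at 0.378. With library size alone in place of TMM factors all 9 were called. That scaling moved the median of all genes between days 3 and 1 from -0.01 to 0.24 and between genotypes from -0.04 to -0.13. Red cell transcripts were highest on day 1. Their median log2 difference over 8 markers was -2.82 between days 3 and 1 and 0.21 between days 3 and 2. Over the 9 transcripts these medians were 0.34 and 0.33. The part of red cell transcripts in the day differences was not tested.

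**Figure D3:**
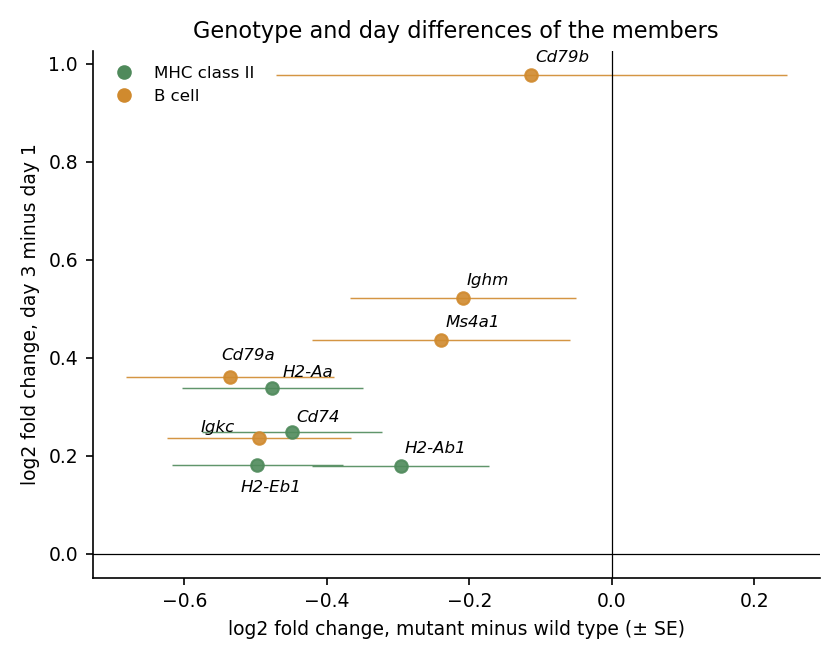
Genotype difference (x axis, log2, mutant minus wild type, bars are SE) against the difference of day 3 minus day 1 (y axis, log2) for the 9 transcripts, green for class II and orange for B cell genes. Cd79b, Ighm and Ms4a1 have the largest day differences (0.98, 0.52 and 0.44) and the smallest genotype differences (-0.11 to -0.24).

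Per kilobase of counted length, Igkc had the highest mean level at 83.5 CPM per kb and Ms4a1 the lowest at 3.47. Between them stood Cd74 (74.4), H2-Aa (73.4), Ighm (47.5), H2-Eb1 (17.1), H2-Ab1 (16.2), Cd79a (9.43) and Cd79b (8.16 CPM per kb). Neighbours in this order kept their places in all 6 libraries except 3 pairs. Cd74 exceeded H2-Aa in 3 of 6 libraries, H2-Eb1 exceeded H2-Ab1 in 4 and Cd79a exceeded Cd79b in 5. The counts of the alpha chain H2-Aa were well above those of its beta chain H2-Ab1 per length, at 61.4 ± 5.56 against 14.6 ± 0.391 CPM per kb in mutant pools and 85.4 ± 13.2 against 17.9 ± 2.56 in wild-type pools (SD, n = 3 each). The part of unequal mapping of BalB/c reads to the C57BL/6J build in this gap was not tested.

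Ratios of counts within a library do not depend on scaling. Cd79a stood at 0.149 to 0.172 counts per count of H2-Aa over the 6 libraries, and the genotypes overlapped (mutant 0.156 ± 0.00833, wild type 0.161 ± 0.00928, SD, n = 3 each). Igkc stood at 0.310 to 0.373 counts per count of H2-Aa, again with overlap. The B cell gene Cd79a and the class II gene H2-Aa thus differed between pools in nearly the same proportion. Ighm, Ms4a1 and Cd79b followed H2-Aa less closely in log2 CPM (Pearson r = 0.766, 0.717 and 0.544) than Cd79a did (0.980). Cd79b per Cd79a varied more, from 0.515 in the wild-type pool of day 1 to 1.24 in the mutant pool of day 3. Class II counts were 1.54 to 2.03 times the B cell counts, lowest in the mutant pool of day 3.

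Lambda light chain counts made up a smaller share in mutant pools, with no overlap between genotypes. Counts of the lambda constant regions Iglc1, Iglc2 and Iglc3 made up 26.4%, 28.3% and 33.4% of all light-chain constant counts in mutant pools of days 1 to 3. In wild-type pools they made up 41.3%, 46.0% and 45.1%. The highest mutant share (95% Wilson interval 30.5% to 36.5%) lay below the lowest wild-type share (38.7% to 44.0%), intervals that cover counting error only. Iglc2 (-1.41 ± 0.18, adjusted p = 1.47e-05) and Iglc3 (-1.72 ± 0.19, adjusted p = 2.32e-06) fell by more than Igkc on the log2 scale, by edgeR, and whether they fell by more was not tested. These genes are near-identical copies, so the split of reads among them is uncertain.

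**Figure D4:**
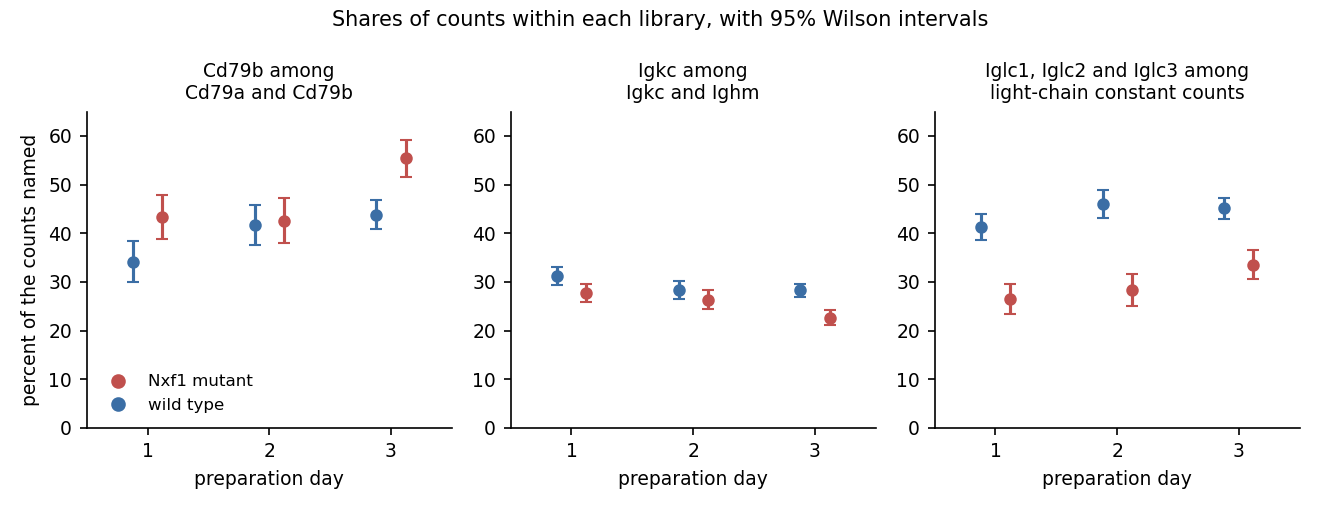
Shares of counts in each library by preparation day, with 95% Wilson intervals for counting error: Cd79b among Cd79a and Cd79b (left), Igkc among Igkc and Ighm (middle), and Iglc1 to Iglc3 among light-chain constant counts (right). In the right panel the mutant pools lie between 26.4% and 33.4% and the wild-type pools between 41.3% and 46.0%, and in the left panel the mutant pool of day 3 is highest.

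Other genes of class II presentation mostly did not pass. Of 26 listed, 22 were tested, 1 fell (9.16% of all genes) and none rose (12.9% of all genes), with a median of -0.20 (edgeR). The gene that fell was H2-Ea, the alpha chain that pairs with H2-Eb1, silent in C57BL/6 mice and expressed in BALB/c. It measured 28.4, 30.1 and 34.0 CPM in mutant pools and 37.7, 36.9 and 44.4 CPM in wild-type pools, with no overlap (log2 fold change -0.36 ± 0.12, adjusted p = 0.0345, edgeR). Its call was lost without mutant replicate 1 (adjusted p = 0.132), mutant replicate 2 (0.1), wild-type replicate 3 (0.0834), day 1 (0.159) or day 2 (0.144), by edgeR. Ciita, the class II coactivator, differed by day (adjusted p = 6.75e-17, edgeR) and not detectably by genotype, at 8.60 ± 3.11 CPM in mutant pools and 7.97 ± 3.53 CPM in wild-type ones (SD, n = 3 each; adjusted p = 0.901, edgeR). It was chosen after its values were seen.

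B cell receptor signalling genes were called in both directions, at no more than the shares over all genes. Of 28 listed, 27 were tested, 2 fell (9.16% of all genes) and 3 rose (12.9% of all genes), with a median of -0.15 (edgeR). Prkcb, a protein kinase C downstream of the receptor, fell from 43.5 ± 5.83 to 22.7 ± 4.68 CPM (SD, n = 3 each; log2 fold change -0.94 ± 0.14, adjusted p = 9.97e-05, edgeR). Vav1 (0.70 ± 0.11), Syk (0.47 ± 0.11) and Cd81 (0.50 ± 0.12) rose, and Bcl10, named after its values were seen, fell by 0.53 on the log2 scale. Leaving out mutant replicate 2 ended the calls of Syk (0.41, adjusted p = 0.0648) and Cd81 (0.44, 0.0548), as did day 1 (0.0951 and 0.089) or day 2 (0.172 and 0.127), and Cd81 also lost its call without mutant replicate 1 (0.0693), all by edgeR. Syk, a kinase that also signals in platelets, stood at 239 ± 11.4 CPM in mutant pools and 172 ± 1.08 CPM in wild-type ones.

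Of 30 other B cell identity genes, 29 were tested, 5 fell (9.16% of all genes) and none rose (12.9% of all genes), with a median of -0.33 (edgeR). Besides the 3 lambda genes, Mzb1, a chaperone of antibody-secreting cells, fell from 8.41 ± 0.690 to 5.01 ± 0.215 CPM (-0.75 ± 0.15, adjusted p = 0.000935, edgeR). Fcmr, the IgM Fc receptor, fell from 12.9 ± 2.39 to 9.47 ± 1.02 CPM (-0.44 ± 0.15, adjusted p = 0.0354, edgeR). Fcmr lost its call without mutant replicate 1 (0.0584) or 2 (0.123), without wild-type replicate 3 (-0.28, adjusted p = 0.173) and without any 1 of the days (0.0595 to 0.106), by edgeR. Between days, 22 of the 29 passed (24.5% of all genes). With the day as a block, 16 of the 29 were called lower (18% of all genes) and 1 higher (2164 of all 9822 genes) between genotypes.

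Some markers of other leukocytes were called between genotypes, and their part in the differences above was not tested. Over all genes 9.16% were called lower and 12.9% higher. Of 23 listed monocyte, macrophage and dendritic cell markers, 16 were tested, 5 fell and 1 rose, with a median of -0.16 (edgeR). The other 10 did not pass, among them Itgax (0.05), Irf8 (-0.13), Csf1r (0.14) and Adgre1 (0.29), named after their values were seen. Xcr1 and Clec9a, receptors of the cross-presenting dendritic cells that carry much class II, were at 22.7 ± 1.63 and 23.1 ± 1.69 CPM in mutant pools and 50.2 ± 2.39 and 37.2 ± 5.14 CPM in wild-type pools. Their log2 fold changes were -1.14 ± 0.11 (adjusted p = 6.86e-07) and -0.69 ± 0.13 (adjusted p = 0.000443), and Fcgr1, a monocyte Fc receptor, fell by 0.67 on the log2 scale (adjusted p = 0.000406), all by edgeR. Lyz2, lysozyme of myeloid cells, was higher in mutant pools (0.49 ± 0.13, adjusted p = 0.00935, edgeR). That call was lost without mutant replicate 2 (0.38, adjusted p = 0.146), wild-type replicate 1 (0.44, 0.0729), day 1 (0.50, 0.115) or day 2 (0.51, 0.0993), by edgeR. The other 2 that fell, named after their values were seen, were Ly6c2 (-0.76 ± 0.25) and Mpeg1 (-0.54 ± 0.18). Lyz2 dominated the list's sum, which was 1873, 2178 and 2004 CPM in mutant pools and 1509, 1755 and 1303 CPM in wild-type ones. Without it the sum was 98.2 to 110 CPM in mutant pools and 155 to 169 CPM in wild-type ones. Xcr1, Clec9a and Fcgr1 (20.7 and 33.0 CPM in mutant and wild-type pools) made up most of that remainder. Flt3 and Zbtb46, also listed, were not among the genes counted.

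Of 25 T cell markers, 22 were tested, 1 fell (Themis, -0.95 ± 0.24, adjusted p = 0.00729, edgeR) and 1 rose (Lat, an adaptor also present in platelets, 0.47 ± 0.14, adjusted p = 0.017, edgeR). Both counts were below the shares over all genes, 9.16% lower and 12.9% higher, and the median of the 22 was -0.24. With the day as a block 7 of the 22 were called lower (18% of all genes) and 1 higher (2164 of all 9822 genes). Every mutant library lay below every wild-type library for 7 of the 22 (15.9% of all genes), and above for 0 (1999 of all 9822 genes). The T cell markers summed to 234 to 285 CPM in mutant pools and 199 to 238 CPM in wild-type ones, with overlap. Without Lat, the most abundant, they summed to 52.5 to 64.6 CPM in mutant pools and 67.1 to 80.8 CPM in wild-type ones. Of the 9 genes of all leukocytes, 2 fell, Cd52 (-0.68 ± 0.13, adjusted p = 0.000796) and Laptm5 (-0.35 ± 0.12, adjusted p = 0.0365), by edgeR, and none rose. The median of these 9 was -0.25. With the day as a block 6 were called lower (18% of all genes) and 2 higher (2164 of all 9822 genes). The 2 higher, named after their values were seen, were Cd53 (0.36) and Arhgdib (0.26). Mean levels over all libraries were 1161 CPM for Laptm5 and 8.12 CPM for Ptprc, also named after its values were seen (-0.22, adjusted p = 0.336, edgeR). Themis lost its call without day 1 (-0.73, adjusted p = 0.131), and Lat without mutant replicate 1 (0.137) or 2 (0.172), wild-type replicate 1 (0.076), day 1 (0.204) or day 2 (0.102), by edgeR. Laptm5 lost its call without any 1 of the 3 mutant libraries (0.0647 to 0.192), wild-type replicate 1 (0.0631) or 2 (0.101), day 1 (0.297) or day 2 (0.23), by edgeR. The 7 natural killer cell markers tested of 11, led by Nkg7, and the 5 neutrophil markers tested of 15, led by S100a9 and S100a8, gave no call, with sums of 8.77 to 12.2 and 14.7 to 22.5 CPM over all libraries. No marker tested in any of these lists had a count of 0 in a library.

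Platelet transcripts themselves shifted, and every CPM value is relative to a total in which they weigh heavily. Of 17 platelet markers, 7 rose (12.9% of all genes) and 2 fell (9.16% of all genes), with a median of 0.29 (edgeR). Gp1ba, a chain of the receptor for von Willebrand factor, fell by 1.08 on the log2 scale (adjusted p = 7.28e-07, edgeR), and Vwf and Itgb3 rose by 0.75 and 0.68 (adjusted p of at most 0.00033, edgeR). Platelet markers summed to 79065 to 88157 CPM in mutant pools and 66157 to 80923 CPM in wild-type ones. Their part in the lower levels of the 9 transcripts was not tested.

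**Figure D5:**
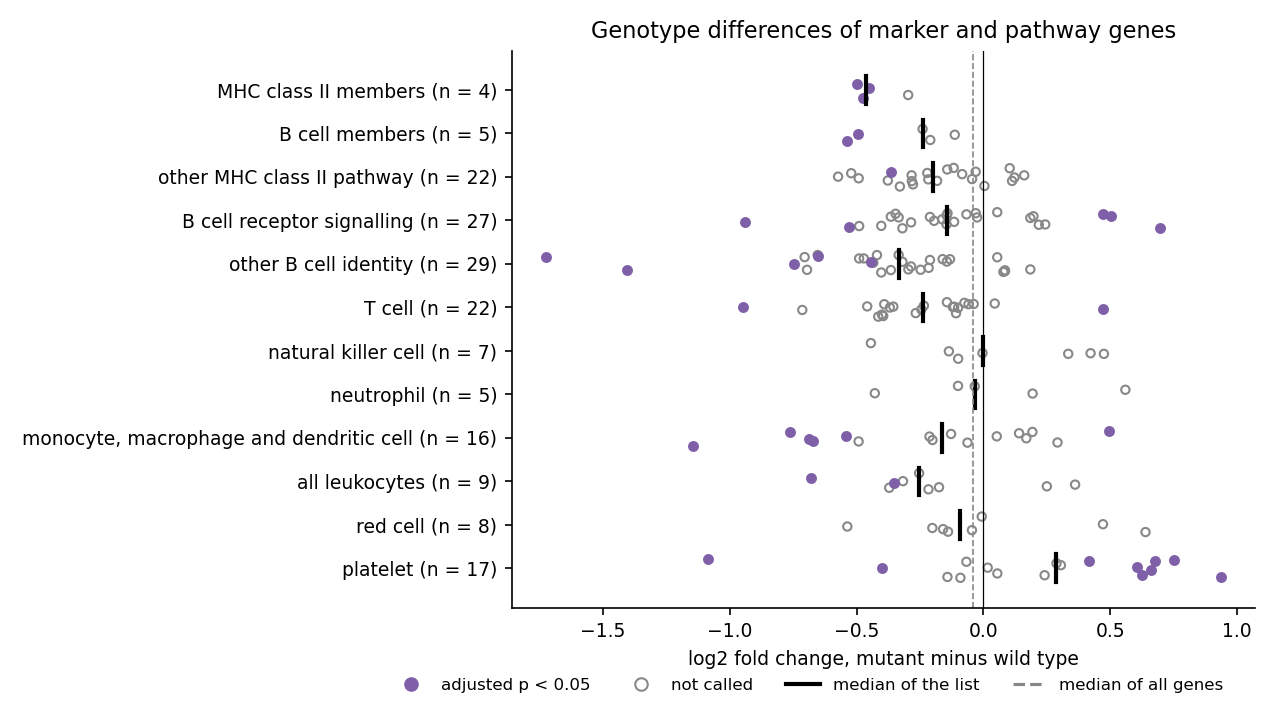
Log2 fold change, mutant minus wild type, of every tested gene in each list (filled where the edgeR adjusted p is under 0.05), with the median of the list as a black bar and the median of all genes, -0.04, as a dashed line. The class II genes lie furthest to the left by median (-0.46), followed by other B cell identity genes (-0.33), and platelet markers lie to the right (0.29).

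The 9 transcripts varied together over the libraries as a description of 6 points that share genotype and day. Of 36 pairs, Cd74 and Igkc were most alike (Pearson r = 0.994), H2-Eb1 and Cd79b least (0.409), and the median was 0.826. Each transcript followed the mean standardised log2 CPM of the 9 at 0.885 to 0.969, except Cd79b at 0.673. Each is itself part of that mean, which raises these values. With clone, predicted and unnamed genes left out, 4000 other genes had a mean of at least 5 CPM. Of those, the most like the mean of the 9 were Prrc2c (0.985), Rnf40, Txnip, Ssrp1, Impdh2-ps, Uba2, Bach2, Srsf11, Prps2 and H2-Ea (0.972). Of these 10 genes only H2-Ea was called between genotypes in the main fit, which has no block. Alternatives without the block called from 0 of them (as with library size alone) to 4 (without mutant replicate 3). With the day as a block 8 were called lower by edgeR (18% of all genes), Bach2 (adjusted p = 0.181) and Srsf11 (0.249) being the exceptions. With DESeq2 and the block 3 were (H2-Ea, Txnip and Ssrp1). The 10 genes were picked for following the 9 transcripts over these same 6 libraries, so their calls are no separate evidence. Txnip, the most abundant after H2-Ea, measured 21.8 ± 2.16 CPM in mutant pools and 26.4 ± 3.31 CPM in wild-type ones (SD, n = 3 each).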

How the data were processed

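PolyA RNA libraries of pooled platelet suspensions were made with a kit that does not mark strand, per the labels' protocols. Each deposited table holds raw counts by gene and the counted length in bases, per the file headers. The submitters' processing notes name CASAVA 1.8.2, Subread, featureCounts and mm10, without settings. Entrez identifiers were named from RefSeq (9636 of 9822), GENCODE (2) or left unnamed (184). Every gene exceeded 0.5 CPM in 3 or more libraries, and filterByExpr removed 0.

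The deposited counts entered edgeR 4.0.16 under R 4.3.3 (TMM, robust quasi-likelihood fit, genotype only, two-sided), with Benjamini-Hochberg adjustment at 0.05 over all genes. The biological coefficient of variation was 14.2%, and 5.73% with the day as a block. The SE is the log2 fold change divided by the square root of F. Log2 CPM used a prior count of 2. Days were tested by an F test of the day terms with genotype in the fit. The fits were also run on simulated data. For the genotype test these held no day effect and the spread of the fit with the day as a block. They therefore do not gauge the errors of the unblocked test on these libraries. As alternatives, scaling, filter, threshold and tool (DESeq2 1.42.0, limma 3.58.1 with voom) were changed, and libraries or days were left out.

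Libraries were paired by the preparation day in the labels. Within days, deviations from the group means had correlations of 0.431, 0.271 and 0.482, and across days the highest was -0.0104. Replicates of a genotype differed by more than sampling noise (mean chi-square per gene 14.5 or more). The 9 transcripts and the lists were chosen with earlier results of these data known. Named besides the 9 were up to 4 called genes per list by smallest p, the 2 most abundant markers of other cell types, and the 10 genes most like the 9. Not every gene this takes is described.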

Additional observations from a re-analysis of the deposited data

Results flagged for a closer look

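Cd79b was the only one of the 9 transcripts whose mutant and wild-type pools changed order between preparation days. Its mutant minus wild-type difference in log2 CPM was 0.21 on day 1, -0.32 on day 2 and -0.13 on day 3. Each day holds 1 pool of each genotype, and the difference between days was not tested. The values rest on 200 and 167 counts on day 1, 188 and 231 on day 2, and 353 and 445 on day 3, in the mutant and the wild-type library.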

How the results depend on the processing

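Over 23 alternatives of the genotype test no direction of the 5 called transcripts changed, and H2-Eb1 and Igkc were called in each. The count of 5 of 9 became 3 at an adjusted p of 0.01 and 2 with library size alone (H2-Aa 0.0682, Cd74 0.09, Cd79a 0.0616), and 3 to 6 with libraries or days left out. The 2166 genes called became 1332 at an adjusted p of 0.01, 3929 with the replicate block and 3448 with the replicate block without day 3, 1382 to 2276 with single libraries left out, and 1197, 1005 and 2389 without day 1, 2 and 3. H2-Ab1 also passed when only the 4267 genes reaching 5 CPM on average were tested (-0.43, adjusted p = 0.0305, edgeR), and DESeq2 with the block called 6 of the 9. The block changed no other call of the 9 transcripts than H2-Ab1 and Ighm. Cd79b ranged from -0.43 to 0.23 and was never called between genotypes, nor was Ms4a1. Between days the 2405 genes became 1411 at an adjusted p of 0.01, 1389 by DESeq2 and 1026 to 2711 with libraries left out, and the 7 transcripts became 4 by DESeq2 and 3 to 9 with libraries left out. Leaving out single libraries for the day test, and days under the block, were chosen after seeing the data. Class II counts were 0.0191 ± 0.00284% of all counts in mutant and 0.0280 ± 0.00778% in wild-type pools (SD, n = 3 each), and 0.0308% and 0.0492% with the 10 most abundant genes left out of the total. B cell counts were 0.0112 ± 0.00286% and 0.0147 ± 0.00508%, and 0.0180% and 0.0259% without those genes. At 140 to 445 counts, Ms4a1 and Cd79b carry the widest counting error, up to 8.45% of their level.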
